A study of Mus musculus with 12 samples.

Results

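The genes described here are 10 genes of the elastic fibre and its microfibrils: Eln, Fbn1, Mfap2, Mfap4, Mfap5, Fbln1, Fbln2, Fbln5, Efemp1 and Emilin1. They were chosen by name, from their place in the elastic fibre, with earlier results of these data known. They were found in the deposited count table by Ensembl identifier. All 10 are among the 78334 genes of that table, and all 10 were among the 16981 genes with enough counts to be tested. Poly(A) RNA of mouse left ventricle was sequenced from 3 groups of 4 animals, with 1 library per animal. Sham vehicle mice had a sham operation and ate normal chow. In UNX/DOCA vehicle mice, unilateral nephrectomy was joined with deoxycorticosterone acetate, a mineralocorticoid, to bring on diastolic dysfunction, and the mice ate the same normal chow. UNX/DOCA ITF2357 mice had the same procedure and ate chow holding ITF2357 (givinostat), an inhibitor of histone deacetylases. In all groups the chow period began 4 weeks after surgery and lasted 4 weeks. No Sham group received ITF2357, so every value for the drug comes from hearts with UNX/DOCA, and the labels used here state no strain, age, sex or drug dose.

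Elastic fibres let a tissue recoil after stretch. They consist of a core of cross-linked elastin laid down on a scaffold of fibrillin microfibrils, with fibulins and EMILIN-1 at the boundary between the core and the scaffold, and lysyl oxidases make the cross-links. Microfibrils also hold latent TGF-beta and BMP growth factors in the matrix. In the heart these fibres lie in the coronary vessel walls, the valves, the epicardial layer and the interstitium, and fibroblasts and smooth muscle cells make most of their proteins. In RNA from whole tissue, fewer cells of a type and less RNA per cell cannot be told apart.

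Promoter sequence in RefSeq (mouse build GRCm38.p6) was matched to 7 of the 10 genes by symbol, as the 250 bases before each annotated start, which gave 10 windows. Eln, Mfap4 and Mfap5 were not matched. The windows of Fbn1 and Efemp1 are shown because Fbn1 was the only gene of the 10 called changed in any comparison, while Efemp1 was not called and had log2 fold changes of only -0.26 to -0.10 in the 3 comparisons. The Fbn1 window is chr2:125506439-125506688 on the minus strand, and the Efemp1 window is chr11:28852955-28853204 on the plus strand. Both are written 5′ to 3′ along the gene, and the capitals mark GGGCGG, the GC box bound by Sp1-type factors, or its reverse complement.
Fbn1: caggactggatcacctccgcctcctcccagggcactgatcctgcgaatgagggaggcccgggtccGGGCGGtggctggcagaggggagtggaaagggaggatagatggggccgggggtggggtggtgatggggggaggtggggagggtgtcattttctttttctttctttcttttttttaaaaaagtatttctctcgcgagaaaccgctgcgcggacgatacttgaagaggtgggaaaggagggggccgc
Efemp1: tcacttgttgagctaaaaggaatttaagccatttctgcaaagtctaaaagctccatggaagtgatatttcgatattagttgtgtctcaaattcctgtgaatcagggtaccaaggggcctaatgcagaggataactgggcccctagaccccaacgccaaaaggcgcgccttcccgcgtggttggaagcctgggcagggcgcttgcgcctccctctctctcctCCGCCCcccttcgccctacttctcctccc
The Fbn1 window has the GC box 185 bases before the start and a GC content of 59.2%. The Efemp1 window has it 29 bases before the start, on the other strand, and a GC content of 53.6%, beside a median of 52.4% over all 32851 windows. GGGCGG was present on either strand in 6 of the 10 windows, of Fbn1, Mfap2, Fbln1, Fbln2, Fbln5 and Efemp1, and in 32.7% of all windows. TGANTCA, a loose form of the AP-1 site TGASTCA (S is C or G), was found in 1 of the 10, of Efemp1, and in 6.75% of all windows. The match in Efemp1 reads TGAATCA, which the stricter form leaves out. CCAAT was found in 2 of the 10, of Mfap2 and Fbln5 (33.8% of all windows). CAGAC, a short SMAD-binding motif, was in 5 of the 10 windows, of the 4 genes Mfap2, Fbln1, Fbln5 and Emilin1 (42.2% of all windows). Both Fbln1 windows are among these 5 and overlap each other, so shared sites were counted in both. GGAATG, a TEAD-binding motif, was in 1 of the 10 windows, of Mfap2 (12.6%). TATAAA (12.4% of all windows) and the CArG box bound by serum response factor (1.47%) were found in 0 of the 10. Every motif was searched on both strands, and a match or its absence describes these letters only.

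Relative to Sham vehicle, the microfibril gene Mfap5 stood at 2.61 times the Sham level in UNX/DOCA vehicle hearts and Fbn1, Mfap4 and Emilin1 at 1.57, 1.55 and 1.5 times, and none of the 10 genes passed the test over all genes. With ITF2357, Fbn1, the main fibrillin of adult microfibrils, fell to 0.457 of its UNX/DOCA vehicle level. Mfap5, a small glycoprotein that binds fibrillin-1, stood at 0.566 of it without passing. Eln, which encodes elastin itself, had its highest mean in the ITF2357 group. The fibulin genes and Emilin1 had fold changes with ITF2357 between -0.35 and -0.02 on the log2 scale, and none passed. Levels are given below as CPM (counts relative to library size, scaled between libraries by the TMM method), in replicate order 1 to 4, and fold changes as log2 with their standard error (SE). A gene was called where its Benjamini-Hochberg adjusted p over all 16981 genes was under 0.05.

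**Figure D1:**
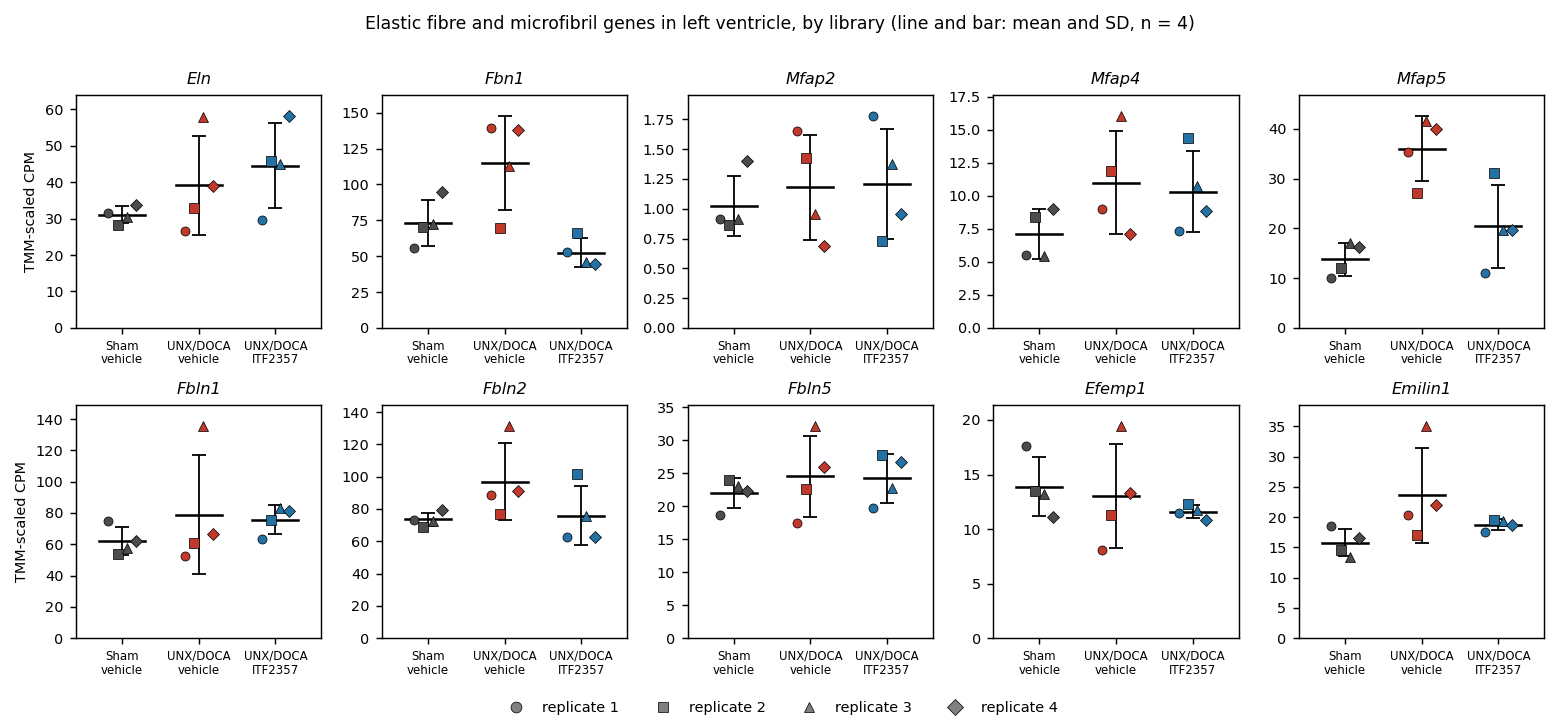
TMM-scaled CPM of the 10 genes in each of the 12 libraries; each point is a library, its shape the replicate number, and the line and bar are the mean and SD of 4 libraries. All 4 ITF2357 libraries lie below all 4 UNX/DOCA vehicle libraries for Fbn1, and all 4 UNX/DOCA vehicle libraries lie above all 4 Sham vehicle libraries for Mfap5.

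Each library held 23.4 to 34.9 M counts, of which the 10 genes took 0.0281% to 0.0600%. The tissue label was checked on marker genes. The summed level of 5 cardiomyocyte genes was 41560 to 54580 CPM in every library, and 4 atrial genes together reached 1.06 to 4.03 CPM. Replicate 3 of UNX/DOCA vehicle stood apart: its 5 neutrophil genes summed to 494.7 CPM, against 3.62, 23.2 and 148 CPM in the other libraries of its group and 4.95 to 43.1 CPM in the other groups. It was the highest of all 12 libraries for 7 of the 10 genes, so the fold changes of most of the 10 genes are also given without it. No library was left out of the values below unless stated.

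Eln encodes tropoelastin, the soluble subunit of the elastic core. Its level was 31.6, 28.2, 30.4 and 33.8 CPM in Sham vehicle, 26.5, 32.9, 57.9 and 39.0 CPM in UNX/DOCA vehicle and 29.5, 45.7, 44.9 and 58.0 CPM in UNX/DOCA ITF2357. The Sham libraries lay close together, while UNX/DOCA vehicle spread around them and 3 of 4 ITF2357 libraries lay above all Sham libraries. The log2 fold change was 0.33 ± 0.23 (SE) for UNX/DOCA vehicle against Sham vehicle (adjusted p = 0.508). With ITF2357 it was 0.19 ± 0.23 against UNX/DOCA vehicle (adjusted p = 0.695; 95% interval -0.30 to 0.68). Against Sham vehicle it was 0.52 ± 0.23 (adjusted p = 0.225), so no comparison of Eln passed. Without UNX/DOCA vehicle replicate 3 the first was 0.08 and the second 0.43, and the second was 0.04 without ITF2357 replicate 4 or UNX/DOCA vehicle replicate 1.

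Fbn1 encodes fibrillin-1, the backbone of the microfibril. Its level was 55.5, 70.5, 72.6 and 94.8 CPM in Sham vehicle, 139, 69.7, 113 and 138 CPM in UNX/DOCA vehicle and 53.3, 66.2, 45.7 and 44.9 CPM in UNX/DOCA ITF2357. Replicate 2 of UNX/DOCA vehicle lay among the Sham libraries and the other 3 above them, whereas all 4 ITF2357 libraries lay below all 4 UNX/DOCA vehicle libraries. The means were 73.3 ± 16.2, 115 ± 32.5 and 52.5 ± 9.88 CPM (SD, n = 4 each). Fbn1 fell by 1.13 ± 0.22 (SE) on the log2 scale with ITF2357 against UNX/DOCA vehicle (adjusted p = 0.0395; 95% interval -1.61 to -0.65). UNX/DOCA vehicle against Sham vehicle gave 0.65 ± 0.22 (adjusted p = 0.197), and ITF2357 against Sham vehicle gave -0.48 ± 0.22 (adjusted p = 0.243). The 3 comparisons share groups of libraries and are not independent of each other.

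The call on Fbn1 is close to the threshold. Over 22 alternative settings its log2 fold change stayed between -1.31 and -0.998, and it was called in 9 of them, with adjusted p from 0.000101 to 0.266. Leaving out 1 library at a time ended the call in 9 of 12 cases, among them replicate 3 of UNX/DOCA vehicle (-1.14, adjusted p = 0.0879). The call was kept without Sham vehicle replicate 1, UNX/DOCA vehicle replicate 2 or ITF2357 replicate 2. Without any ITF2357 library other than replicate 2 the adjusted p was 0.0929 to 0.108, and without UNX/DOCA vehicle replicates 1 and 4 it was 0.051 and 0.12. Sham vehicle libraries are in neither group of this comparison, but they enter the gene filter, the scaling and the shared estimate of the spread. Without Sham vehicle replicates 2, 3 or 4 the adjusted p of Fbn1 was 0.0646, 0.0552 and 0.0515.

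Mfap5, or MAGP-2, is a microfibril-associated glycoprotein that binds fibrillins. Its level was 10.1, 11.99, 17.1 and 16.2 CPM in Sham vehicle, 35.4, 27.2, 41.7 and 40.0 CPM in UNX/DOCA vehicle and 11.02, 31.2, 19.7 and 19.7 CPM in UNX/DOCA ITF2357. All UNX/DOCA vehicle libraries lay above all Sham libraries, and 3 of 4 ITF2357 libraries lay below all UNX/DOCA vehicle libraries, with replicate 2 inside their range. The log2 fold change of UNX/DOCA vehicle against Sham vehicle was 1.38 ± 0.27 (SE), the furthest from 0 of the 10 genes (adjusted p = 0.0954; 95% interval 0.79 to 1.97). With ITF2357 it was -0.82 ± 0.27 against UNX/DOCA vehicle (adjusted p = 0.14) and 0.56 ± 0.27 against Sham vehicle (adjusted p = 0.265). Mfap5 against Sham vehicle was called in 4 of the 22 alternatives: by DESeq2 (adjusted p = 0.000196), by limma-voom with sample weights (0.0212), without UNX/DOCA vehicle replicate 1 (0.0424) and without ITF2357 replicate 1 (0.0394). Over all 22 the log2 fold change of UNX/DOCA vehicle against Sham vehicle was 1.18 to 1.49, with adjusted p from 0.000196 to 0.645. With any 1 library left out it was 1.25 to 1.49. DESeq2 also called Mfap5 lower with ITF2357 against UNX/DOCA vehicle (adjusted p = 0.0417), the only 1 of the 22 to do so.

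Mfap4, a glycoprotein with a fibrinogen-like domain that binds elastin and fibrillin-1, had 5.55, 8.44, 5.46 and 9.01 CPM in Sham vehicle, 8.98, 11.9, 16.04 and 7.12 CPM in UNX/DOCA vehicle and 7.32, 14.4, 10.7 and 8.87 CPM in UNX/DOCA ITF2357. The groups overlapped in every comparison. UNX/DOCA vehicle against Sham vehicle gave a log2 fold change of 0.63 ± 0.28 (adjusted p = 0.3), and ITF2357 against UNX/DOCA vehicle gave -0.09 ± 0.27 (adjusted p = 0.898). Without UNX/DOCA vehicle replicate 3 they were 0.39 and 0.14. Mfap4 shares 89 bases of exon with Mapk7 on the opposite strand, which had up to 275 counts where Mfap4 had at least 138, and the strand setting of the counting is not given, so part of its reads may not be its own. Fbn1 shares 2442 bases with Gm9913 and Eln 267 bases with Gm30003, also on the opposite strand. Those 2 genes had at most 5 and 4 counts. Whether reads of Fbn1 or Eln in the shared bases were left uncounted is not known. Mfap2, or MAGP-1, the other microfibril-associated glycoprotein, had 0.91, 0.87, 0.91 and 1.402 CPM in Sham vehicle, 1.65, 1.42, 0.96 and 0.68 CPM in UNX/DOCA vehicle and 1.77, 0.73, 1.38 and 0.95 CPM in UNX/DOCA ITF2357. These are 19 to 49 reads per library, and the 95% interval of its log2 fold change with ITF2357 against UNX/DOCA vehicle ran from -0.68 to 0.73.

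Fbln5 encodes fibulin-5, which brings elastin to microfibrils. Its level was 18.7, 23.9, 23.1 and 22.3 CPM in Sham vehicle, 17.5, 22.5, 32.1 and 26 CPM in UNX/DOCA vehicle and 19.7, 27.8, 22.7 and 26.8 CPM in UNX/DOCA ITF2357. The groups overlapped, and the log2 fold change with ITF2357 against UNX/DOCA vehicle was -0.02 ± 0.17 (adjusted p = 0.973; 95% interval -0.37 to 0.34), and 0.13 without UNX/DOCA vehicle replicate 3. Efemp1 encodes fibulin-3, an elastic fibre protein of fascia and other connective tissue. Its level was 17.6, 13.5, 13.3 and 11.1 CPM in Sham vehicle, 8.06, 11.3, 19.4 and 13.3 CPM in UNX/DOCA vehicle and 11.5, 12.3, 11.7 and 10.9 CPM in UNX/DOCA ITF2357. The lowest and the highest of the 12 Efemp1 values were both in UNX/DOCA vehicle, and the ITF2357 libraries lay close together. Its log2 fold change was -0.10 ± 0.22 for UNX/DOCA vehicle against Sham vehicle and -0.16 ± 0.22 for ITF2357 against UNX/DOCA vehicle (adjusted p = 0.857 and 0.736). Without UNX/DOCA vehicle replicate 3 they were -0.36 and 0.09.

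Fbln1, a fibulin of basement membranes and elastic fibres, was 74.9, 54.0, 57.7 and 62.2 CPM in Sham vehicle, 52.3, 61.1, 135 and 66.7 CPM in UNX/DOCA vehicle and 63.2, 75.3, 83.2 and 81.4 CPM in UNX/DOCA ITF2357. Replicate 3 of UNX/DOCA vehicle alone was far above the rest. With it, the log2 fold change against Sham vehicle was 0.34 ± 0.25 (adjusted p = 0.535), and without it -0.05. Fbln2, which binds elastin and fibrillin-1 and is known to be made by activated cardiac fibroblasts, was 73.4, 68.8, 72.8 and 79.1 CPM in Sham vehicle, 88.4, 76.9, 131 and 91.2 CPM in UNX/DOCA vehicle and 62.9, 102, 75.9 and 62.9 CPM in UNX/DOCA ITF2357. Here 3 of 4 UNX/DOCA vehicle libraries lay above all Sham libraries, and 3 of 4 ITF2357 libraries lay below all UNX/DOCA vehicle libraries. The log2 fold changes of Fbln2 were 0.40 ± 0.17 (adjusted p = 0.297) and -0.35 ± 0.17 (adjusted p = 0.302), and without UNX/DOCA vehicle replicate 3 they were 0.22 and -0.18.

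Emilin1 encodes EMILIN-1, an elastin-associated glycoprotein that limits TGF-beta processing. Its level was 18.5, 14.5, 13.5 and 16.5 CPM in Sham vehicle, 20.4, 17.1, 34.99 and 22.01 CPM in UNX/DOCA vehicle and 17.5, 19.5, 19.3 and 18.7 CPM in UNX/DOCA ITF2357. Of the UNX/DOCA vehicle libraries 3 of 4 lay above all Sham libraries, and the ITF2357 libraries lay close together inside the UNX/DOCA vehicle range. The log2 fold change of UNX/DOCA vehicle against Sham vehicle was 0.58 ± 0.18 (adjusted p = 0.172), and 0.33 without replicate 3. With ITF2357 it was -0.33 ± 0.18 against UNX/DOCA vehicle (adjusted p = 0.353), and -0.08 without that library.

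As a list, 9 of the 10 genes had a fold change above 0 in UNX/DOCA vehicle against Sham vehicle, with a median log2 of 0.37, beside 51.1% of all genes tested and a median of 0.01. None was called, and percent called over all 16981 genes was 0%. At an unadjusted p under 0.05 there were 5 of the 10, all higher (Fbn1, Mfap4, Mfap5, Fbln2 and Emilin1), against 9.42% of all genes higher. Only Mfap5 had groups that did not overlap, against 5.03% of all genes on that side. Without UNX/DOCA vehicle replicate 3, 7 of 10 were above 0, with a median of 0.26.

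With ITF2357 against UNX/DOCA vehicle, 8 of the 10 were below 0, with a median log2 of -0.12, beside a median of -0.001 over all genes. Fbn1 was the 1 gene called, against 0.442% of all genes called lower, and the 1 gene whose groups did not overlap, against 4.36%. Fbn1 and Mfap5 were the 2 with an unadjusted p under 0.05, against 9.8% of all genes on the lower side. Without UNX/DOCA vehicle replicate 3, 5 of 10 were above 0, with a median of 0.01. In ITF2357 against Sham vehicle 8 of 10 were above 0 (median 0.25, all genes 0.02), 0 of 10 were called against 1.75% of all genes, and 0 of 10 had groups that did not overlap, against 13.7%. At an unadjusted p under 0.05, edgeR gave 2 of the 10 in that comparison, Eln higher (10.7% of all genes) and Fbn1 lower (9.39%). DESeq2 and limma-voom also called 0 of the 10 there, while limma-voom called 1528 of all 16981 genes. The DESeq2 count over all genes is given in the last section.

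**Figure D2:**
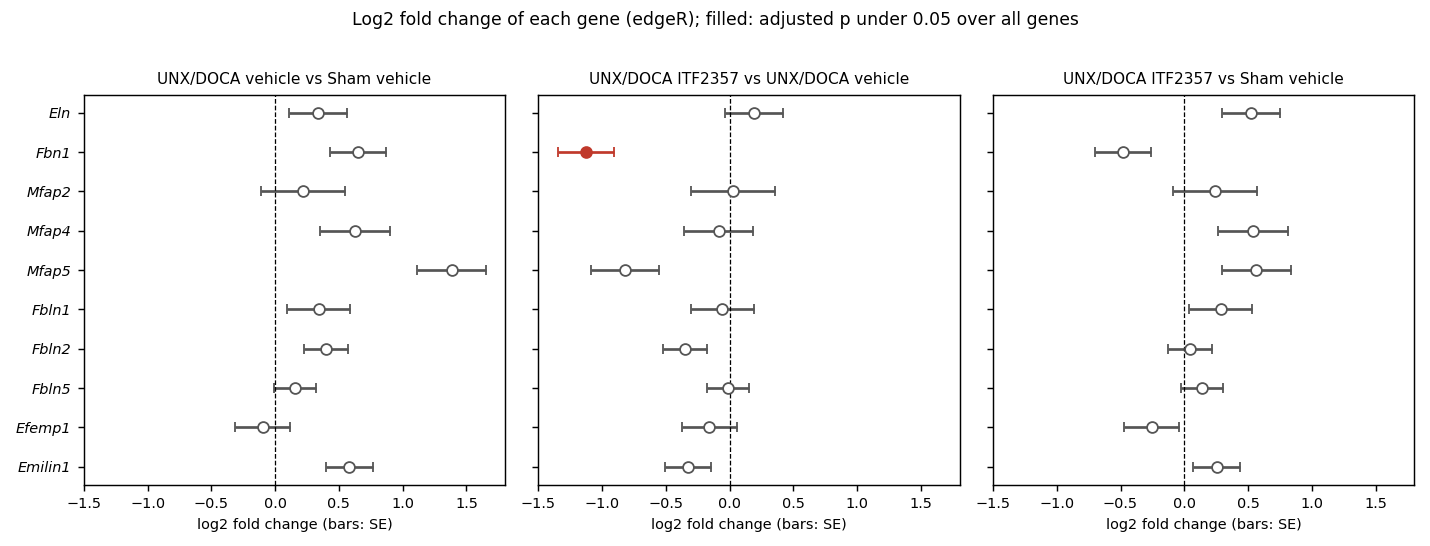
Log2 fold change of each gene in the 3 comparisons from edgeR; bars are SE, and a filled point marks an adjusted p under 0.05 over all genes tested. Fbn1 with ITF2357 against UNX/DOCA vehicle, at -1.13, is the only filled point, and Mfap5 in UNX/DOCA vehicle against Sham vehicle, at 1.38, is the farthest from 0.

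Levels of different genes were compared per length of exon sequence (CPM per kb), since longer transcripts collect more reads. That length joined all annotated exons of a gene, and can exceed the length of the transcripts present. The order of the genes below therefore also depends on the annotation. In Sham vehicle Fbln1 led with 14.2 ± 2.09 CPM per kb and Fbln2 followed with 11.5 ± 0.662 (SD, n = 4), and their ranges just met. Efemp1 (6.81 ± 1.33) and Fbn1 (6.05 ± 1.34) came next and did not differ beyond their spread. Mfap5, Eln, Mfap4, Emilin1 and Fbln5 formed a group between 3.86 and 3.19 CPM per kb whose libraries overlapped from neighbour to neighbour. Mfap2 was lowest at 0.844 ± 0.21 CPM per kb. In UNX/DOCA vehicle Mfap5 moved from the fifth to the third place with 10.1 ± 1.81 CPM per kb, just above Fbn1 with 9.48 ± 2.68, and the libraries of these overlapped. In UNX/DOCA ITF2357 Fbn1 moved from the fourth to the seventh place with 4.33 ± 0.814 CPM per kb, below Mfap5 (5.69 ± 2.31), Eln (5.50 ± 1.45) and Mfap4 (5.38 ± 1.59), though its range overlapped theirs.

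The spread between animals is described here for 4 libraries per group, and differences in it between groups were not tested. The coefficient of variation of Eln was 7.53% in the Sham group, 34.7% with UNX/DOCA and vehicle, and 26.3% with UNX/DOCA and ITF2357. For Emilin1 it was 14.0%, 33.3% and 4.92%, and for Efemp1 it was 19.5%, 36.8% and 5.26%. With all 4 libraries these 3 genes had their largest value in UNX/DOCA vehicle, as did Fbn1, Mfap4, Fbln1, Fbln5 and, narrowly, Fbln2. No coefficient was computed without replicate 3 of that group. Fbln1 reached the largest value there (14.7%, 48.3% and 11.9% in the same order). Its level was 135 CPM in that replicate 3 and 52.3, 61.1 and 66.7 CPM in the other UNX/DOCA vehicle libraries. For Emilin1 the same libraries had 34.99 CPM and 20.4, 17.1 and 22.01 CPM. Mfap5 was least variable in UNX/DOCA vehicle (24.1%, 18% and 40.5%), and Mfap2 was at 24.8%, 37.3% and 38.4%. Replicate 3 of UNX/DOCA vehicle was the highest library of its group for 8 of the 10 genes, Fbn1 and Mfap2 being the exceptions. Its median deviation from the 12-library mean was 0.68 log2 units. In the ITF2357 group, replicate 2 was the highest library for 7 genes and replicate 1 the lowest for 6.

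**Figure D3:**
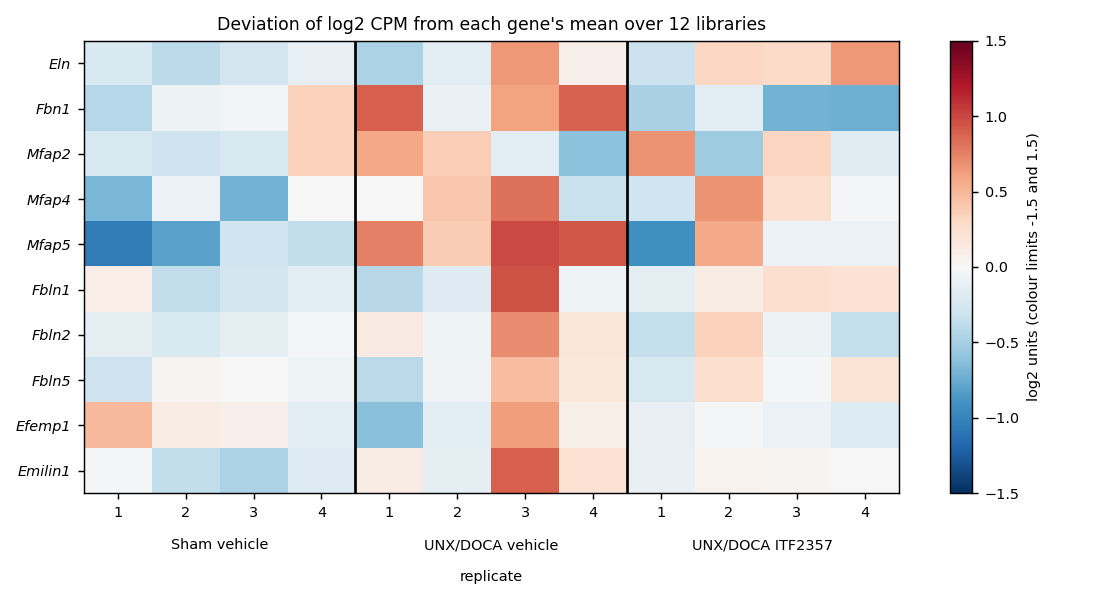
Deviation of log2 CPM from the mean over 12 libraries for each gene (rows) and library (columns, by group and replicate); red is above and blue below the mean, with colour limits at -1.5 and 1.5. UNX/DOCA vehicle replicate 3 is red for 9 of 10 genes, with Mfap2 below its mean, and the Fbn1 row is blue in all 4 ITF2357 libraries.

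Across the 12 libraries, after each group's mean was taken away, the 10 genes fell into looser and tighter pairs. Over the 45 pairs the median Pearson r was 0.46, with 20 pairs above 0.5 and 12 below 0. Fbln1 went most closely with Emilin1 (r = 0.90), Eln (r = 0.85) and Efemp1 (r = 0.84). Fbn1 went with Mfap5 (r = 0.55) and hardly with Eln (r = -0.05), and Mfap2 was below 0 with all other genes, down to -0.70 with Fbln5. The points share library, depth and tissue piece, and UNX/DOCA vehicle replicate 3 weighs on many of them, so these values are descriptions. Among 9951 genes of at least 5 CPM, those most like the mean of the 10 standardised genes included S100a6 (r = 0.972), Bgn (0.964), Gpi1 (0.958) and Flii (0.944). Mfap5, which had the smallest p against Sham vehicle, was most like Flt1 (r = 0.93), Coro2b (0.926), Sh2d3c (0.926), Flnc (0.902) and Yipf1 (0.90).

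The level of Fbn1 relative to each other gene was then taken within a library, which removes library scaling. These ratios were chosen after the values above had been seen, when Fbn1 itself already differed without overlap between the same UNX/DOCA libraries. Their p values are therefore descriptions and not evidence separate from the call on Fbn1. Per Eln count there were 5.26, 2.12, 1.95 and 3.54 Fbn1 counts in UNX/DOCA vehicle and 1.81, 1.45, 1.02 and 0.774 in UNX/DOCA ITF2357. The groups did not overlap, and in Sham vehicle the ratio was 1.76 to 2.81. On the log2 scale the Fbn1 to Eln ratio was -1.31 in ITF2357 minus UNX/DOCA vehicle (exact permutation test, two-sided, p = 0.0286, the smallest that 4 against 4 allows; 0.0643 after Benjamini-Hochberg adjustment over 9 ratios).

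The ratio of Fbn1 to Fbln5 differed by -1.10, to Efemp1 by -1.004 and to Fbln2 by -0.75, each without overlap and each with the same exact permutation p of 0.0286 and adjusted 0.0643. For Fbln1 (-1.14), Mfap2 (-1.13), Mfap4 (-1.03) and Emilin1 (-0.82) the groups overlapped, with exact permutation p from 0.0571 to 0.114. The ratio to Mfap5 differed least, by -0.20 (exact permutation p = 0.571), with 2.56 to 3.94 Fbn1 counts per Mfap5 count in UNX/DOCA vehicle. In ITF2357 the values were 4.84, 2.12, 2.32 and 2.28, so replicates 2, 3 and 4 lay below all UNX/DOCA vehicle libraries and replicate 1 above them. Without ITF2357 replicate 1 the difference in the Mfap5 ratio was -0.48 (exact permutation p = 0.0571). All 9 differences were below 0, and they share the same numerator. Groups did not overlap in 4 of them, and none passed after adjustment. With any of the 8 libraries left out the smallest p that 3 against 4 allows is 0.0571.

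**Figure D4:**
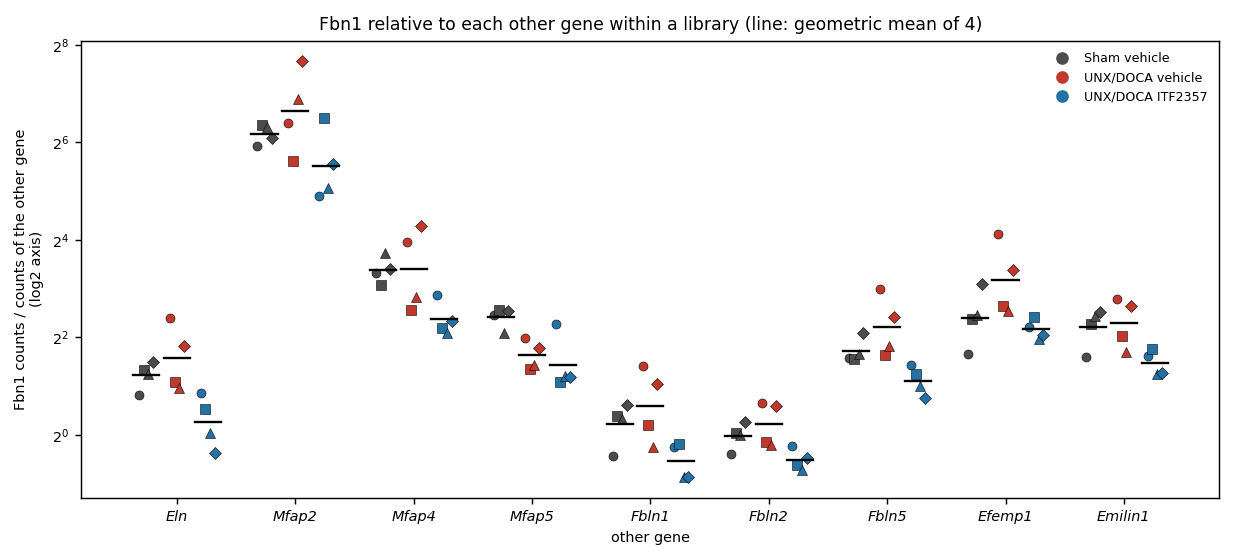
Fbn1 counts divided by the counts of each other gene in the same library, on a log2 axis; points are libraries, shapes the replicate, colours the group, and lines the geometric mean of 4. The ITF2357 points lie below all UNX/DOCA vehicle points for Eln, Fbln2, Fbln5 and Efemp1, while for Mfap5 replicate 1 of ITF2357 lies above them and the other 3 below.

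Other genes of the elastic fibre were read from 7 lists of 55 genes, of which 51 were tested. The lists were drawn up with earlier results of these data known, so shares over all genes set beside them are descriptions. Emilin3, Bmp5, Bmp10 and Elane had too few counts. In UNX/DOCA vehicle against Sham vehicle 0 of 51 were called. At an unadjusted p under 0.05, 15 were higher and 1 lower, against 9.42% and 6.47% of all genes. DESeq2 and limma-voom each called 4 of the 51, and edgeR without a count filter called 1. With ITF2357 against UNX/DOCA vehicle 3 of 51 were called, all lower, against 0.442% of all genes, with a median log2 of -0.09 over the 51. At an unadjusted p under 0.05, 3 were higher and 13 lower, against 8.7% and 9.8% of all genes. Of these 51, DESeq2 called 6, edgeR without a count filter 6 and limma-voom 3, while 0 were called in a fit of only the 2 groups, with a replicate block, or without UNX/DOCA vehicle replicate 4 or any of ITF2357 replicates 1, 3 and 4. In ITF2357 against Sham vehicle edgeR called 0 of 51, DESeq2 1 and limma-voom 3, while 6 had an unadjusted p under 0.05 on the higher and 5 on the lower side, against 10.7% and 9.39% of all genes. Over all 16981 genes, DESeq2 called 593 in UNX/DOCA vehicle against Sham vehicle and 928 in ITF2357 against UNX/DOCA vehicle. For ITF2357 against Sham vehicle limma-voom called 1528 of them. The other counts over all genes by tool are given in the last section.

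Of the 5 lysyl oxidases, the copper enzymes that cross-link elastin and collagen, 2 fell with ITF2357 against UNX/DOCA vehicle. Loxl2 was 28.8, 19.9, 31.7 and 26 CPM in UNX/DOCA vehicle and 11.7, 16.9, 11.2 and 14.4 CPM in ITF2357, without overlap. Its log2 fold change was -0.97 ± 0.18 (adjusted p = 0.0349), and UNX/DOCA vehicle against Sham vehicle gave 0.76 ± 0.18 (adjusted p = 0.108). Loxl1, which is known to act on elastin together with fibulin-5, fell too, with 28.7, 19.8, 32 and 25.3 CPM in UNX/DOCA vehicle and 17.4, 17.6, 15.8 and 15.8 CPM in ITF2357 (log2 fold change -0.67 ± 0.14, adjusted p = 0.0496). Loxl3 stood at 2.90 CPM against 4.16 (-0.52 ± 0.18, adjusted p = 0.153). Lox itself was 3.37, 14.4, 6.82 and 14.5 CPM in ITF2357 and 7.05, 10.8, 9.73 and 14.0 CPM in UNX/DOCA vehicle, so its groups overlapped. The calls on Loxl2 and Loxl1 were made in 12 and 4 of 22 alternatives, and neither was made without UNX/DOCA vehicle replicate 3.

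Of the 9 integrins that bind elastic fibre proteins, Itga5, the alpha chain of the fibronectin receptor, which also binds fibrillin-1, fell with ITF2357. Its level was 95.7, 72.0, 137 and 93.0 CPM in UNX/DOCA vehicle and 49.3, 59.2, 46.5 and 59.7 CPM in ITF2357, below all Sham libraries (72.6 to 83.1 CPM) too. The log2 fold change against UNX/DOCA vehicle was -0.89 ± 0.16 (adjusted p = 0.03; called in 14 of 22 alternatives, among them without UNX/DOCA vehicle replicate 3, at -0.70), and against Sham vehicle it was -0.54 ± 0.16 (adjusted p = 0.0905). Itga8, a partner chain for RGD ligands, had 6.38 CPM in ITF2357 and 3.74 in UNX/DOCA vehicle (0.77 ± 0.20, adjusted p = 0.0858). Itgb3 was at 6.08 CPM with UNX/DOCA and vehicle against 3.07 CPM in Sham, without overlap (0.99 ± 0.28, adjusted p = 0.142). Itgb8, which activates latent TGF-beta, was 1.82 and 1.02 CPM in the same groups, also without overlap (adjusted p = 0.21).

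Among latent TGF-beta binding proteins and ligands 0 of 11 tested were called in any comparison. Ltbp2, a microfibril-binding protein, was 3.38, 1.82, 3.28 and 5.53 CPM in Sham vehicle, 7.56, 4.62, 21.4 and 9.78 CPM in UNX/DOCA vehicle and 3.85, 11.8, 8.16 and 5.47 CPM in ITF2357. Replicate 3 of UNX/DOCA vehicle was again highest, and the log2 fold change against Sham vehicle was 1.64 ± 0.49 (adjusted p = 0.163), or 1.07 without it. Ltbp4, needed for elastic fibre assembly, was 139 CPM in ITF2357 and 198 CPM in UNX/DOCA vehicle (-0.51 ± 0.19, adjusted p = 0.173), and Tgfb1 and Tgfb2 were 28.4 and 12.5 CPM in UNX/DOCA vehicle against 20.1 and 8.74 CPM in Sham vehicle, neither called. Their log2 fold changes, 0.50 and 0.51, were 0.28 and 0.26 without UNX/DOCA vehicle replicate 3.

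Of the 8 ADAMTS and ADAMTS-like genes, whose proteins bind fibrillin, 0 were called. Adamtsl5 was 126, 114, 134 and 123 CPM in UNX/DOCA vehicle and 62.2, 108, 86.3 and 81.7 CPM in ITF2357, without overlap (-0.55 ± 0.13, adjusted p = 0.064). Thsd4, or ADAMTSL6, which promotes microfibril assembly, was 4.11 CPM in ITF2357 and 2.95 in UNX/DOCA vehicle (0.47 ± 0.17, adjusted p = 0.166). Adamts10 was at 29.4 CPM in Sham against 23.03 CPM with UNX/DOCA and vehicle (-0.36 ± 0.14, adjusted p = 0.236), and Adamtsl3 was 7.03, 8.46 and 8.01 CPM in the 3 groups. Of the other microfibril and fibulin family genes 0 of 7 tested were called. Efemp2, or fibulin-4, which brings lysyl oxidase to elastin, averaged 7.08 CPM in Sham, 10.1 CPM with UNX/DOCA and vehicle, and 7.70 CPM with ITF2357 (0.51 ± 0.17 and -0.39 ± 0.17 on the log2 scale, adjusted p = 0.182 and 0.225). Hmcn1, Emilin2 and Mmrn2 stood at 27.5, 45.2 and 69.3 CPM in UNX/DOCA vehicle and 35.4, 56.0 and 63.3 CPM in ITF2357.

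None of the 7 elastin-degrading proteases tested was called. Mmp14, a membrane-bound metalloproteinase, was 14.3, 12.1, 25.1 and 19.2 CPM in UNX/DOCA vehicle and 11.6, 8.56, 10.0 and 9.32 CPM in ITF2357, without overlap (-0.84 ± 0.20, adjusted p = 0.0658). Ctsk, cathepsin K, was 7.38 and 5.09 CPM in those groups (-0.53 ± 0.18, adjusted p = 0.146), while Ctsl, cathepsin L, was 180 and 189 CPM. Mmp9, a gelatinase of neutrophils, was 1.49, 0.0323, 40.4 and 7.80 CPM in UNX/DOCA vehicle and 0.444 to 1.74 CPM in ITF2357, and the 40.4 was in the same replicate 3 that had the most neutrophil RNA. Its log2 fold change was -3.46 ± 1.26 (adjusted p = 0.183), and 0.56 without replicates 3 and 4 of UNX/DOCA vehicle. Of the 4 metalloproteinase inhibitors 0 were called. Timp1 was 1.52, 1.96, 2.18 and 4.77 CPM in Sham vehicle, 8.64, 4.53, 12.1 and 10.5 CPM in UNX/DOCA vehicle and 1.89, 7.08, 3.93 and 3.73 CPM in ITF2357. Its log2 fold changes were 1.78 ± 0.44 (adjusted p = 0.12) and -1.09 ± 0.42 (adjusted p = 0.197). Timp2 was 127 and 99.0 CPM in UNX/DOCA vehicle and ITF2357, Timp3 was 253 and 302 CPM, and Timp4 was 99.9 and 125 CPM.

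**Figure D5:**
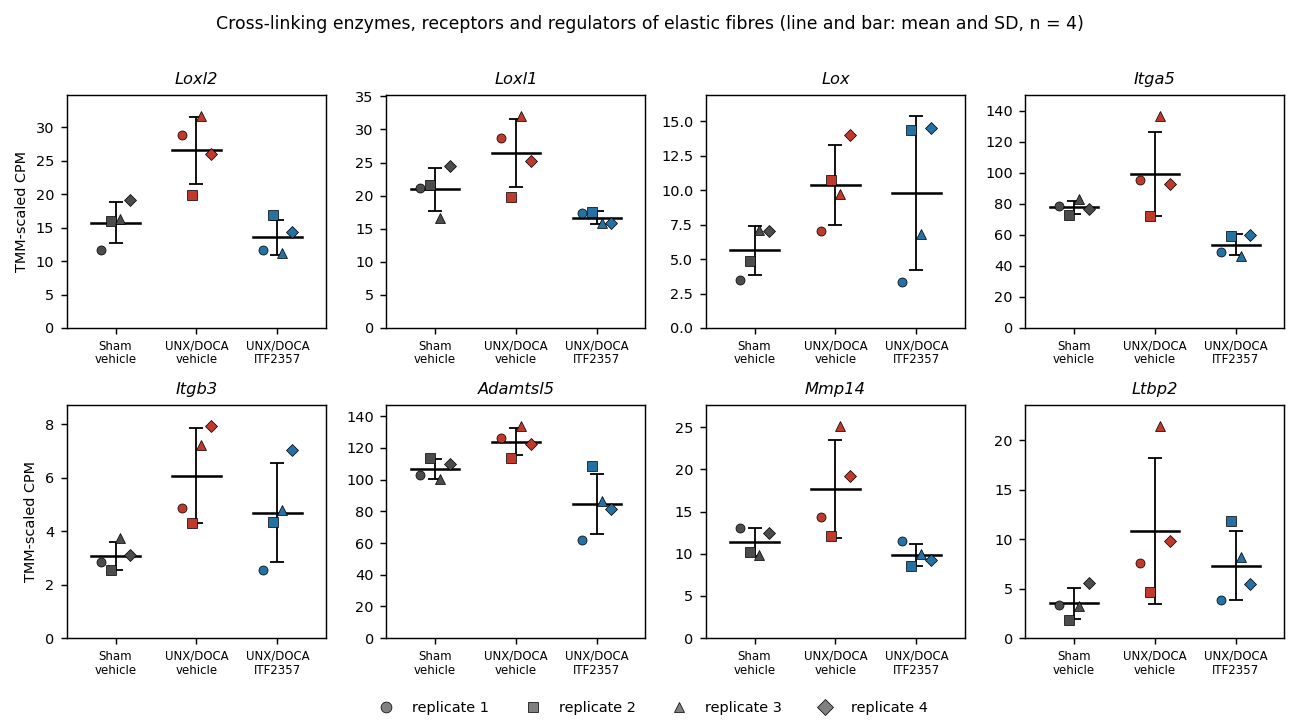
TMM-scaled CPM of 8 other elastic fibre genes, picked after their values were seen, in each of the 12 libraries; shapes are replicates, and lines and bars are mean and SD of 4 libraries. Loxl2, Loxl1, Itga5, Adamtsl5 and Mmp14 have all ITF2357 libraries below all UNX/DOCA vehicle libraries, and Lox, Itgb3 and Ltbp2 overlap.

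Levels of cell type markers are given because fibroblasts and smooth muscle cells make these proteins. The summed level of 7 fibroblast genes was 1429 to 1676 CPM in Sham vehicle, 1431 to 1947 CPM in UNX/DOCA vehicle and 1366 to 1623 CPM in ITF2357, and 0 of 7 were called in any comparison. Of these, Col1a1, a collagen I chain, was the 1 with an unadjusted p under 0.05 with ITF2357 against UNX/DOCA vehicle, at 44.2 against 77.8 CPM (log2 -0.81, adjusted p = 0.138). In that comparison 5 of the 7 were below 0 and 2 above, from -0.81 to 0.26, beside 49.8% of all genes above 0. Most of the fibroblast sum came from Gsn and Dcn, with means of 918 and 424.8 CPM in Sham vehicle. The 5 genes of adventitial-type fibroblasts summed to 99.8 to 106, 110 to 272 and 104 to 150 CPM, 0 of 5 called. In that list Pi16 was 62.4, 52.4, 163 and 111 CPM in UNX/DOCA vehicle, highest in replicate 3. The summed level of 6 smooth muscle genes was 372 to 527, 419 to 605 and 201 to 401 CPM, so the ITF2357 libraries lay below all UNX/DOCA vehicle libraries. Most of that sum was Acta2, with a mean of 149 CPM in ITF2357 and 307 CPM in UNX/DOCA vehicle. Of the 5 smooth muscle genes tested 0 were called in that comparison, Tagln having only 2 to 10 counts per library, and Smtn was called lower in ITF2357 against Sham vehicle (-0.49, adjusted p = 0.0229). Myh11, the smooth muscle myosin heavy chain, was at 35.4 CPM with ITF2357 against 36.9 CPM (log2 -0.06), Cnn1 at 3.77 against 4.13 and Lmod1 at 3.65 against 3.12, while Acta2 was 276, 259, 394 and 298 CPM in UNX/DOCA vehicle and 83.7, 97.4, 248 and 168 CPM in ITF2357. The 6 macrophage genes summed to 141 to 180, 144 to 405 and 139 to 249 CPM. Pericyte genes summed to 668 to 850 CPM over the 12 libraries, endothelial genes to 528 to 835 CPM and epicardial mesothelial genes to 3.27 to 16.2 CPM. The part of these cells in the results on Fbn1, Mfap5 and the other genes was not tested.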

How the data were processed

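Left ventricular poly(A) RNA of 12 mice (3 groups of 4, about 10 mg of tissue each) was sequenced with strand-specific libraries in pairs of 150 bp reads, per the labels' protocols. The authors deposited a table of raw counts for each Ensembl gene, which are whole numbers with no normalization. The submitters' processing notes name STAR 2.7.10b, FastQC 0.11.9 and the mm39 build. The tool that counted reads, its strand setting and its annotation: not given in the sources used here. Symbols were matched by Ensembl identifier (51486 of 78334 identifiers, at least 99.2% of each library's counts). Exon lengths came from a GRCm38 annotation and promoter windows from RefSeq GRCm38.p6, another build than the counts, so positions were not joined to the counts.

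Differential tests used edgeR 4.0.16 (R 4.3.3): filterByExpr (10 counts), TMM scaling, and a robust quasi-likelihood fit over all 12 libraries with 1 term per group (9 residual degrees of freedom, common biological coefficient of variation 0.187). F tests of the 3 contrasts were adjusted by Benjamini-Hochberg over 16981 genes, with a threshold of 0.05, and adjusted p values are from this edgeR fit where no other tool is mentioned. SE is |log2 fold change| over the root of F. For correlations, a prior count of 2 was added before log2 CPM. The test was also run on counts simulated from the mean levels and spread of these data. Those counts held no outlying library, so that run does not check the calls made here. Replicate counts differed by 10.9 to 57.3 times counting error (chi-square per degree of freedom), so no library is a copy of another. Groups were taken from the titles, since 3 ITF2357 libraries carry another number after ITF in their treatment field. Replicates are different animals per the labels, and equal numbers do not pair animals: over 12 same-number pairs of libraries the deviations correlated from -0.19 to 0.25.

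The 10 genes, the other gene lists and the markers were chosen with earlier results of these data known. All 10 genes are named, and from each other list up to 4 genes with the smallest p over the 3 contrasts, and the 5 genes most like Mfap5 and most like the mean of the 10, of which 1 is not reported here; Pi16, Col1a1, Acta2, Myh11, Cnn1, Lmod1, Smtn and Tagln were picked after their values were seen. Alternatives were DESeq2 1.42.0, limma-voom (limma 3.58.1) with sample weights, scaling by RLE, by upper quartile or by library totals, testing unfiltered genes or those of at least 1 CPM in 4 libraries, fitting the 2 compared groups alone, a replicate block, each of the 12 libraries left out, and omission of both UNX/DOCA vehicle replicate 3 and replicate 4. Ratios within libraries were compared by exact permutation tests, and leaving libraries out of them was added after the data were seen.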

Additional observations from a re-analysis of the deposited data

Results flagged for a closer look

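In 6 of 114 groups of 4 libraries looked at, 1 library lay far from the other 3 for its gene, by a gap test (Dixon's) that chance passes in about 1 in 20 groups. Of the 10 elastic fibre and microfibril genes only Mfap2 was among them: Sham vehicle replicate 4 had 1.402 CPM, and the other 3 Sham libraries 0.866 to 0.912 CPM. Among the other elastic fibre genes, UNX/DOCA vehicle replicate 3 was the high library for Loxl3 (5.74 CPM, others 3.46 to 3.74) and for Tgfb2 (18.7 CPM, others 9.89 to 11.3). Sham vehicle replicate 3 was the high library for Adamtsl3 (7.32 CPM, others 6.92 to 6.97) and for Timp4 (132.7 CPM, others 52.9 to 61.6), and the low library for Itgb8 (0.752 CPM, others 1.08 to 1.14).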

How the results depend on the processing

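Over 22 alternatives, 611 of 660 fold changes of the 10 genes kept their direction and their side of the threshold, 13 lost and 5 gained a call, and 31 changed sign. The genes called in UNX/DOCA vehicle against Sham vehicle (0) numbered 7 with upper-quartile scaling, 210 without a filter, 593 with DESeq2, 559 with limma-voom and 1 without UNX/DOCA vehicle replicates 3 and 4. For ITF2357 against UNX/DOCA vehicle (153) they numbered 352 without a filter, 928, 239, 5 in a fit of 2 groups and 12, and for ITF2357 against Sham vehicle (298) 1180 with DESeq2, 1528 with limma-voom, 475 in a fit of 2 groups and 481 without replicates 3 and 4. With a replicate block, which does not pair animals here, 31, 68 and 192 genes were called, 0 of the 10 genes in ITF2357 against UNX/DOCA vehicle, and Fbln1 there was 0.009. Leaving out 1 library gave 0 to 380, 14 to 243 and 17 to 616 genes. Of the 10 genes, DESeq2 and limma-voom each called 1 in the first comparison. In the second, DESeq2 called 2, and 0 were called without a filter, in a fit of 2 groups or without replicates 3 and 4. Leaving out 1 library gave 0 to 1 in each of these comparisons. Of the 10 genes, those without overlap numbered 1 to 4, 1 to 3 and 0 to 4 with 1 library left out, and 2 and 2 in the first 2 comparisons without replicates 3 and 4. The share over all genes without overlap was not counted in these settings. Smaller groups separate more easily for any gene, so these numbers have no background to be read against. The cause of the changes between settings was not tested.

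Sign changes were all of genes not called. In ITF2357 against UNX/DOCA vehicle, Fbln5 was 0.015 with upper-quartile scaling, and limma-voom gave Mfap4 0.144 and Fbln1 0.191. With 1 library left out, that comparison ran from -0.218 to 0.234 for Mfap2, -0.289 to 0.143 for Mfap4, -0.207 to 0.33 for Fbln1, -0.146 to 0.133 for Fbln5 and -0.329 to 0.091 for Efemp1. Without UNX/DOCA vehicle replicates 3 and 4 it gave Mfap2 -0.355, Fbln1 0.412, Fbln5 0.269, Efemp1 0.259 and Mmp9 0.558. In UNX/DOCA vehicle against Sham vehicle, limma-voom gave Mfap2 -0.009. With 1 library left out, that comparison ran from -0.051 to 0.485 for Fbln1, -0.002 to 0.277 for Fbln5 and -0.355 to 0.066 for Efemp1, and without replicates 3 and 4 Eln was -0.06, Fbln1 -0.133 and Fbln5 -0.138. In ITF2357 against Sham vehicle, leaving out 1 library gave -0.005 to 0.427 for Mfap2 and -0.132 to 0.12 for Fbln2. Mfap2 had the fewest reads of the 10 genes, 19 to 49 per library.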
